A study of Mus musculus with 8 samples.

Results

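The 10 genes described here encode lipogenic enzymes and regulators of the liver: Srebf1, Acly, Acaca, Fasn, Scd1, Elovl6, Fads1, Fads2, Me1 and Thrsp. They were chosen by symbol, and all 10 were found among the 21899 genes of the deposited table. Gene expression had been measured by RNA sequencing in 8 libraries from mouse liver taken 8 h after ConA (concanavalin A), a lectin used in mice to provoke T cell-driven liver injury. In 4 libraries the labels give the genotype as P2X4R knockdown, which the series description writes as P2X4R-/-, and in the other 4 as wild type; P2X4R, the product of P2rx4, is a cation channel opened by extracellular ATP. All 8 carry the ConA label, and untreated livers were not analysed here. Strain, age and sex, the allele, and whether each library came from its own animal are not given in the labels, and the p-values therefore reflect variation among libraries that may be technical.

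Fatty acid synthesis in the liver starts from citrate, which ATP citrate lyase (Acly) splits into cytosolic acetyl-CoA. Acetyl-CoA carboxylase (Acaca) turns it into malonyl-CoA, and fatty acid synthase (Fasn) builds palmitate from both, with NADPH that malic enzyme (Me1) helps to supply. Palmitate is then lengthened by Elovl6 and given its first double bond by Scd1, whereas Fads2 and Fads1 put double bonds into dietary polyunsaturated fatty acids on the way to arachidonic and docosahexaenoic acid. The transcription factor SREBP-1, encoded by Srebf1, is known to raise most of these genes when insulin and feeding signals are high, and Thrsp (Spot 14) is a lipogenic protein induced by thyroid hormone and carbohydrate.

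Promoter sequences of some members that fell and of some that did not are shown first. RefSeq promoter windows (GRCm38.p6, 250 bases before to 50 after a gene's start) were matched for 8 of the 10 genes, in 11 windows, and Scd1 and Fads1 had none in the table used. The 250 bases before the start are printed 5′ to 3′ on the gene's strand for 2 genes that fell, Acly (chr11:100528001-100528250, minus strand) and Fads2 (chr19:10101504-10101753, minus strand), and 2 that did not pass the test, Fasn (chr11:120824548-120824797, minus strand) and Thrsp (chr7:97417551-97417800, minus strand). Capitals mark CCAAT and GGGCGG on either strand. The gene coordinates given further below are those of the deposited table, whose build is not named. They do not line up with these windows, so the positions cannot be compared.
Acly: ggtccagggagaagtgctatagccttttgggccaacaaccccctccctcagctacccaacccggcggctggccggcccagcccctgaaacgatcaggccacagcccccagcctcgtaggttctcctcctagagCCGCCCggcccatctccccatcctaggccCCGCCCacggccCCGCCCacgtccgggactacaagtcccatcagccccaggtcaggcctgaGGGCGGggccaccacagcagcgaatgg
Fads2: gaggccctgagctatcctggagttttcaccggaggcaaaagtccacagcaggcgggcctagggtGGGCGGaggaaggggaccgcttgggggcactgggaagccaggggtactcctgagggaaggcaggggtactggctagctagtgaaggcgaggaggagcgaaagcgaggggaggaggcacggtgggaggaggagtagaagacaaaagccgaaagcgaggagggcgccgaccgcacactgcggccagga
Fasn: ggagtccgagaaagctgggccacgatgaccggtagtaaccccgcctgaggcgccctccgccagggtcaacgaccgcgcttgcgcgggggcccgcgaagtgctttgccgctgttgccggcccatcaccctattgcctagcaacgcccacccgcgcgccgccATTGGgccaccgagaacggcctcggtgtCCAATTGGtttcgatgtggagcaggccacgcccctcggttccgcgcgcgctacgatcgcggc
Thrsp: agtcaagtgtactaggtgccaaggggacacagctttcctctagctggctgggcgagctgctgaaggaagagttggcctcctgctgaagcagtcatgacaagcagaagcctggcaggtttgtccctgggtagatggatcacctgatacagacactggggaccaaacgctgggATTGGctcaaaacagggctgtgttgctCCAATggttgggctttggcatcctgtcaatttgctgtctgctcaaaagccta

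The letters CCAAT, the box bound by NF-Y, stood 3 times in the Fasn window, of which 2 matches overlap, 2 times in the Thrsp window and 1 time in the Acly window, there after the start and so outside the printed bases. It was also in windows of Srebf1 and Me1. GGGCGG, the GC box bound by Sp1, stood 4 times in the Acly window and 1 time in that of Fads2, and also in windows of Srebf1 and Me1. On either strand CCAAT was present in 37.4% of all 32851 promoter windows and in 6 of the 11 windows of these genes, and GGGCGG in 35.7% and in 5 of the 11. The exact letters CACGTG (the E-box), TCACNCCAC (a sterol regulatory element) and TATAAA, and the exact direct repeat of the LXR element, were in 0 of the 11 windows, against 7.15%, 1.24%, 13.6% and 0.0152% of all windows. Neither CCAAT nor GGGCGG was in the window of Elovl6, which fell, or of Acaca, which did not pass the test. These matches are a description of the letters in these windows, and their part in the changes was not tested.

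The 8 libraries held 15445285 to 16604190 counted reads each. P2rx4 itself, the check of the labels, stood at 55.9 ± 8.31 CPM (SD, n = 4) in the wild-type group, and 44.2% of that level was left in the deficient group, at 24.7 ± 5.33 CPM (SD, n = 4). By exact permutation (two-sided) p was 0.0286, the smallest that 4 against 4 libraries allow. The groups also did not overlap, in either direction, for 24.9% of all genes tested, so such a p is not particular to P2rx4. Each deficient library still held 286 to 516 P2rx4 reads, so this check does not settle whether knockdown or P2X4R-/- is the right wording. CPM is a gene's share of its library's reads after TMM scaling, which corrects for library composition, as counts per megaread. The liver markers were abundant, and the sum of the 7 measured hepatocyte markers ran from 72606 to 97761 CPM in deficient and from 105526 to 118939 CPM in wild-type libraries; 0 of the 7 passed the edgeR test (4 were lower at an unadjusted p under 0.05, 0 higher), and their median log2 fold change was -0.35. Of the Kupffer cell markers 3 of 6 fell, with sums of 24.5 to 29.9 CPM against 28.7 to 101.2 CPM. Of the 6 neutrophil markers 5 were tested and 2 rose, with sums over all 6 of 74.5 to 149.1 CPM against 20.5 to 83.2 CPM. Of the stellate cell markers 2 of 6 fell (Reln and Dcn), with sums of 90.2 to 161.2 CPM against 145.0 to 227.8 CPM. The log2 fold changes of the 6 ran from -0.99 (Reln) to 1.07 (Des, which did not pass). Of the endothelial markers 1 of 6 fell (Clec4g), with sums of 42.9 to 67.9 CPM against 36.0 to 91.4 CPM. Those 6 ran from -1.39 (Clec4g) to 0.44 (Stab2, which did not pass). Over all genes tested, 10.6% were called lower and 9.27% higher. The 5 T cell markers measured stayed under 2 CPM in every library, with sums of 1.62 to 4.10 CPM against 1.45 to 3.61 CPM. Of these 2 could be tested, and 0 passed. The part of the marker shifts in the results below was not tested, and in bulk tissue fewer cells of a type and less RNA per cell cannot be told apart. Fat tissue also expresses lipogenic genes: 6 of 8 adipocyte markers, among them Adipoq, Lep and Plin1, stayed under 2 CPM in every library, while Fabp4 ran from 17.5 to 69.0 CPM and Cidec from 20.6 to 68.7 CPM, both overlapping between the groups.

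Of the 10 lipogenic genes, 7 fell in the P2X4R-deficient libraries and 0 rose. A gene counts as changed at a Benjamini-Hochberg adjusted p under 0.05 in edgeR's quasi-likelihood test over 11380 genes. Of all genes tested 19.9% were called, 10.6% lower and 9.27% higher. The genes that fell were Srebf1, Acly, Me1, Elovl6, Scd1, Fads1 and Fads2, with 33.8% to 54.0% of the wild-type level left. Acaca, Fasn and Thrsp did not pass. The median log2 fold change was -0.96 over the 10 genes and -0.001 over all genes. In TMM-scaled CPM the lowest wild-type library lay above the highest deficient one for each of the 7, a pattern found in 12.3% of all genes in this direction. At an unadjusted p under 0.05, 0 of the 10 were higher, with DESeq2 as with edgeR.

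**Figure D1:**
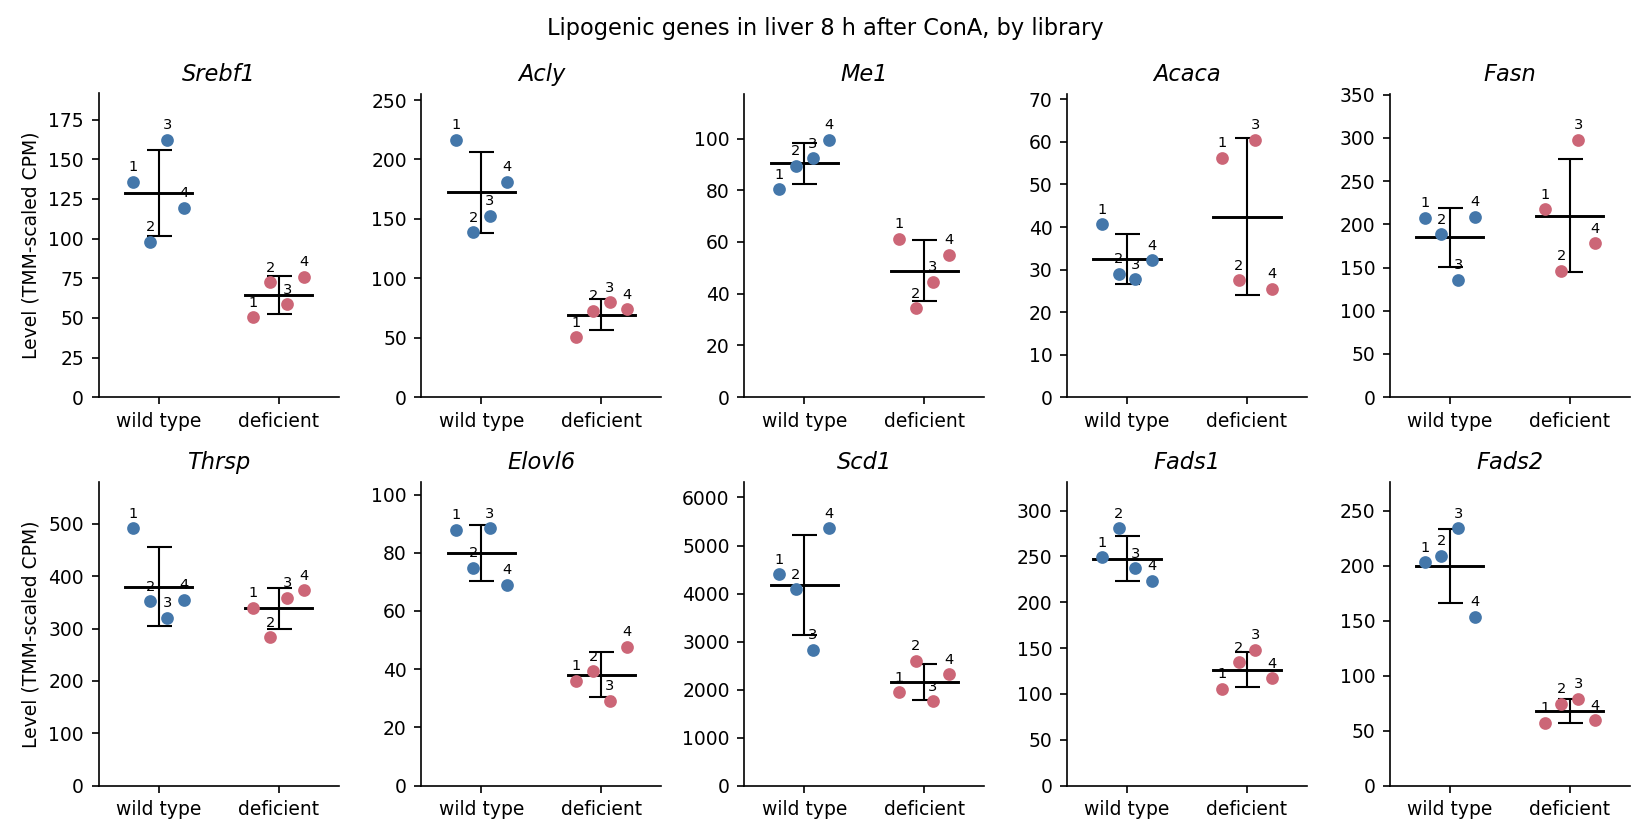
Level of each lipogenic gene in TMM-scaled CPM (vertical axis, from 0) in the 4 wild-type (blue) and 4 deficient (red) libraries, numbered by replicate, with the mean (line) and SD (bar). The groups are apart for Srebf1, Acly, Me1, Elovl6, Scd1, Fads1 and Fads2 and overlap for Acaca, Fasn and Thrsp.

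**Figure D2:**
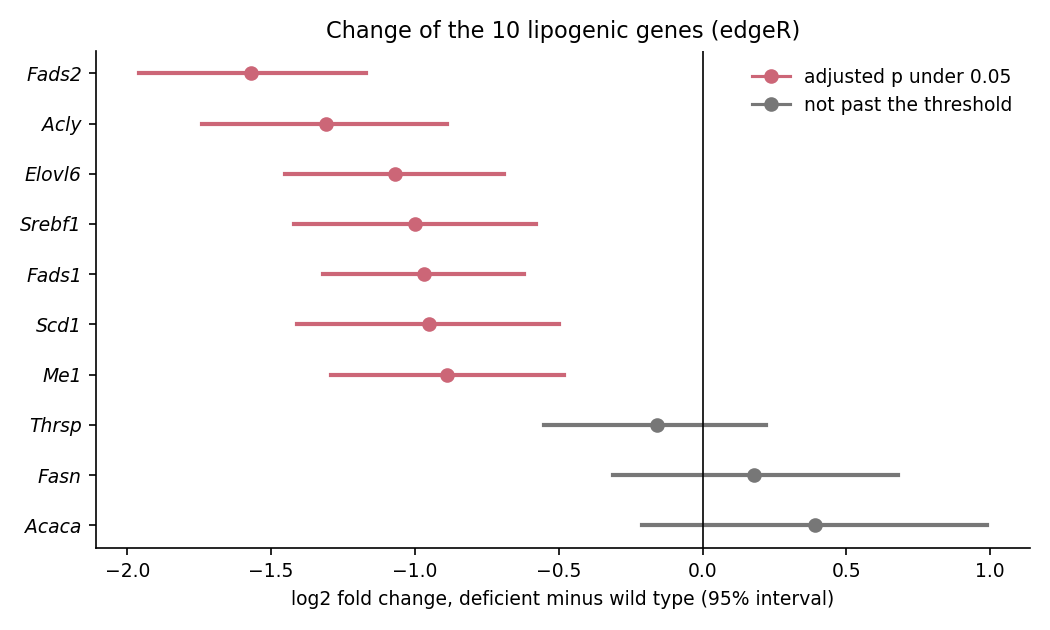
log2 fold change (deficient minus wild type, horizontal axis) of each lipogenic gene with its 95% interval from edgeR. The interval lies below 0 for the 7 genes that passed, from -1.57 for Fads2 to -0.89 for Me1, and spans 0 for Thrsp, Fasn and Acaca.

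The regulator Srebf1 (ENSMUSG00000020538; chromosome 11, 60089915 to 60113407 on the minus strand, as the table lists it) stood at 50.6, 72.6, 58.6 and 76.0 CPM in deficient libraries 1 to 4 and at 135.9, 98.0, 162.3 and 119.5 CPM in wild-type libraries 1 to 4. Every deficient library was below every wild-type library, with wild type 2 the nearest. Srebf1 fell to 50.0% of the wild-type level (95% interval 37.3% to 67.0%, edgeR adjusted p = 0.00816). The count covers the whole gene, so its SREBP-1a and SREBP-1c transcripts were not separated; RefSeq lists 3 promoter windows for it.

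Acly (ENSMUSG00000020917; chromosome 11, 100367179 to 100418826, minus strand), which makes the acetyl-CoA for the pathway, stood at 50.6, 72.9, 79.9 and 74.2 CPM in the deficient libraries and at 216.5, 138.9, 152.5 and 181.2 CPM in the wild-type libraries. The groups were far apart, the lowest wild-type value being 1.74 times the highest deficient one. On the log2 scale, used for all changes from here on, Acly fell by 1.31 (SE 0.19, edgeR adjusted p = 0.00419), to 40.3% of wild type (95% interval 30.0% to 54.1%). Me1 (ENSMUSG00000032418; chromosome 9, 86463424 to 86578006, minus strand), which yields NADPH from malate, stood at 61.3, 34.4, 44.7 and 55.0 CPM against 80.4, 89.5, 92.5 and 99.5 CPM. Wild-type libraries were close to each other and deficient libraries spread more widely, without overlap. The fall of Me1 was the smallest of the 7, by 0.89 (SE 0.19, edgeR adjusted p = 0.0104).

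Neither gene of the committed steps of palmitate synthesis passed the test. Acaca (ENSMUSG00000020532; chromosome 11, 84020498 to 84292477, plus strand), the cytosolic acetyl-CoA carboxylase, stood at 56.3, 27.5, 60.5 and 25.5 CPM in the deficient libraries and at 40.7, 29.0, 27.7 and 32.2 CPM in the wild-type libraries. Deficient 1 and 3 were above all wild-type libraries, and deficient 2 and 4 below all of them. The log2 difference was 0.39 with a 95% interval of -0.21 to 0.99 (edgeR adjusted p = 0.344), and with a library left out it ran from 0.17 (without deficient 3) to 0.55 (without deficient 4). Fasn (ENSMUSG00000025153; chromosome 11, 120696672 to 120715373, minus strand), the multi-enzyme synthase itself, stood at 217.4, 146.3, 297.8 and 178.4 CPM against 207.7, 188.3, 135.9 and 209.0 CPM. Its values overlapped throughout, again with deficient 3 and deficient 1 highest in their group. The log2 difference of Fasn was 0.18 (95% interval -0.31 to 0.68, edgeR adjusted p = 0.605), and with a library left out it ran from -0.04 (without deficient 3) to 0.32 (without deficient 2). As a percent of the wild-type level the intervals ran from 86.2% to 199% for Acaca and from 80.5% to 160% for Fasn. They leave more room for a rise than for a fall.

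Acaca and Fasn are also the longest of the 10, at 17074 and 10947 bases in the table, so the levels of long genes were compared by library. Over the 2096 tested genes longer than 8 kb, the median deviation from the mean of all libraries was taken in log2 units. It was -0.148 in deficient 1 and 0.014 in deficient 3, the libraries where Acaca and Fasn stood highest among the deficient. It was 0.067 in deficient 2, -0.069 in deficient 4 and 0.032 to 0.075 in the wild-type libraries. With the trend on gene length removed from each library, Acaca was at 0.55 and Fasn at 0.28, and neither passed. In the main fit they were at 0.39 and 0.18, and the part of gene length in these values was not tested.

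Thrsp (ENSMUSG00000035686; chromosome 7, 97062145 to 97066937, minus strand) stood at 339.8, 283.9, 359.2 and 373.2 CPM in deficient and at 491.5, 352.3, 321.1 and 355.4 CPM in wild-type libraries. Wild type 1 was highest, and the other 7 libraries ran from 283.9 to 373.2 CPM without separating by group. The log2 difference was -0.16 (95% interval -0.55 to 0.22, edgeR adjusted p = 0.535), and with a library left out it ran from -0.24 (without wild type 3) to -0.03 (without wild type 1).

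Among the enzymes that shape palmitate afterwards, Elovl6 (ENSMUSG00000041220; chromosome 3, 129326004 to 129432144, plus strand), the elongase of saturated and monounsaturated fatty acids, stood at 36.0, 39.4, 29.2 and 47.7 CPM in deficient and at 87.9, 74.8, 88.4 and 69.0 CPM in wild-type libraries. It fell by 1.07 (SE 0.18, edgeR adjusted p = 0.00498) with no overlap. Scd1 (ENSMUSG00000037071; chromosome 19, 44382894 to 44396318, minus strand), the stearoyl-CoA desaturase that makes oleate and palmitoleate, had 1941, 2601, 1754 and 2322 CPM against 4405, 4093, 2829 and 5358 CPM. The groups only just cleared each other, with wild type 3 at 1.09 times the level of deficient 2. On the FPKM scale, which has no TMM scaling, they overlapped slightly, at 534.2 FPKM in the lowest wild-type and 535.7 FPKM in the highest deficient library. Scd1 fell by 0.95 (SE 0.21, edgeR adjusted p = 0.0122), to 51.7% of wild type (95% interval 37.6% to 70.9%). Its paralogs lie beside it on chromosome 19 and were scarcely detected: Scd2 averaged 2.30 ± 1.52 CPM among wild-type and 2.10 ± 0.417 CPM among deficient libraries (SD, n = 4 each), and Scd3 and Scd4 had 0 to 2 reads per library. Reads shared between such near copies could have been split by the counting, which is not described in the sources used here.

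Of the desaturases of polyunsaturated fatty acids, Fads2 had the largest change of the 10 genes. Fads2 (ENSMUSG00000024665; chromosome 19, 10040129 to 10079110, minus strand), which catalyses the first and rate-limiting desaturation, stood at 57.1, 74.4, 79.2 and 59.3 CPM in deficient and at 203.2, 209.0, 233.9 and 153.6 CPM in wild-type libraries. No other of the 10 genes had groups so far apart, the lowest wild-type value being 1.94 times the highest deficient one. Fads2 fell by 1.57 (SE 0.18, edgeR adjusted p = 0.00187), to 33.8% of wild type (95% interval 25.7% to 44.4%). Fads1 (ENSMUSG00000010663; chromosome 19, 10160252 to 10174241, plus strand), which acts later in the same series, stood at 105.8, 134.7, 148.4 and 117.3 CPM against 249.3, 280.6, 237.1 and 223.3 CPM. It also separated the groups fully, and fell by 0.97 (SE 0.16, edgeR adjusted p = 0.00518). These genes lie 81141 bases apart on opposite strands in the listed coordinates. Among deficient libraries both were highest in deficient 3, then 2, 4 and 1; among wild-type libraries Fads2 was highest in wild type 3, then 2, 1 and 4, and Fads1 in wild type 2, then 1, 3 and 4.

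Ratios between genes in the same library do not depend on library scaling. All 45 pairs of the 10 genes were compared by an exact two-sided permutation test over the 70 assignments of libraries, with pairs chosen after seeing the data. The groups did not overlap for 19 pairs, with an exact permutation p of 0.0286, the smallest possible, and adjusted p = 0.0677 over the 45 pairs. None passed, but with this smallest p none could have passed unless more pairs had separated. The adjusted p therefore decides nothing about single pairs. Of the 19, 18 set a gene that fell against Fasn, Acaca or Thrsp; these restate the calls given above on a scale free of library size and add no evidence that the genes differ. Read against Fasn, the 7 genes differed by -1.72 to -1.07 on the log2 scale. The other separated pair was Fads2 to Fads1, whose log2 ratio was -0.91 ± 0.05 (SD, n = 4) in deficient and -0.32 ± 0.22 (SD, n = 4) in wild-type libraries, a difference of -0.59.

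**Figure D3:**
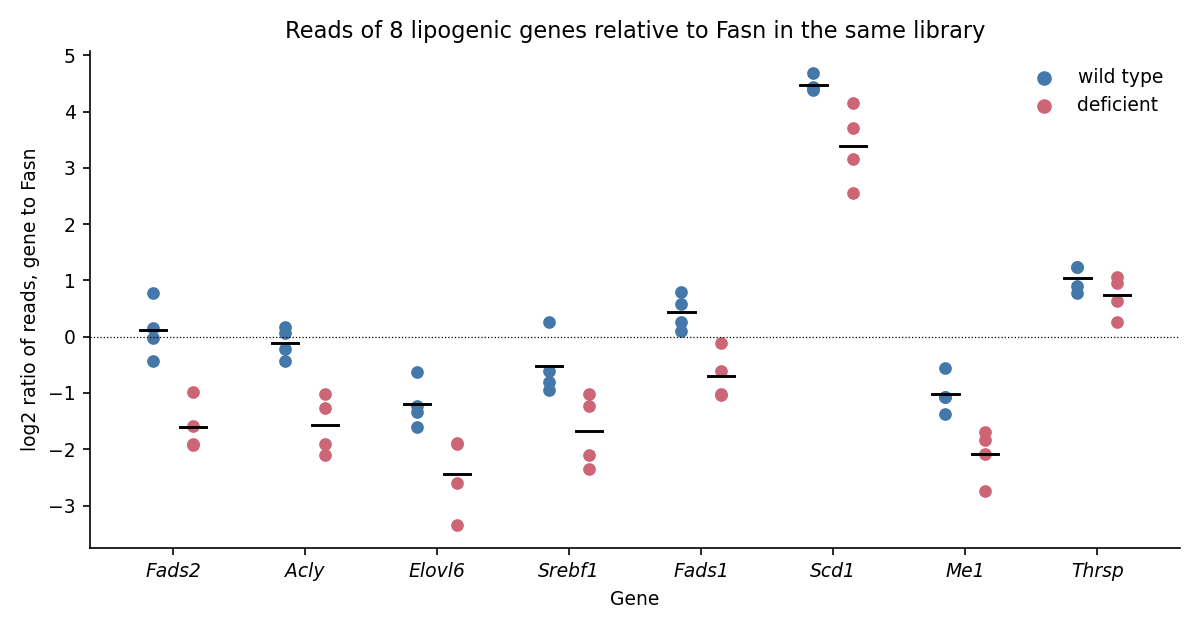
log2 ratio of reads of 8 lipogenic genes to Fasn reads in the same library (vertical axis), with wild-type libraries in blue, deficient in red and the group mean as a line. For the 7 genes other than Thrsp all deficient points lie below all wild-type points; the Thrsp means are 0.73 in deficient and 1.04 in wild-type libraries, with overlap.

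Per gene length, Scd1 was the most abundant of the 10 in both groups, at 813.8 ± 220 FPKM (SD, n = 4) in wild-type and 461.3 ± 67.8 FPKM (SD, n = 4) in deficient libraries. FPKM is the deposited value the authors computed per kilobase of gene and per megaread, without TMM scaling. Thrsp came next, with mean levels of 165.9 FPKM in wild-type and 163.1 FPKM in deficient libraries, and Acaca was last, at 1.81 and 2.63 FPKM. In wild-type libraries the order between them was Fads2, Fads1, Acly, Me1, Srebf1, Fasn and Elovl6. Neighbours overlapped in their library ranges from Acly to Elovl6 and between Fads2 and Fads1. Fasn ranked the eighth in wild-type libraries, at 16.1 ± 3.41 FPKM (SD, n = 4), and the fifth in deficient libraries, at 20.3 ± 6.80 FPKM (SD, n = 4). In deficient libraries the ranges overlapped between all neighbours from Fads1 to Srebf1.

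**Figure D4:**
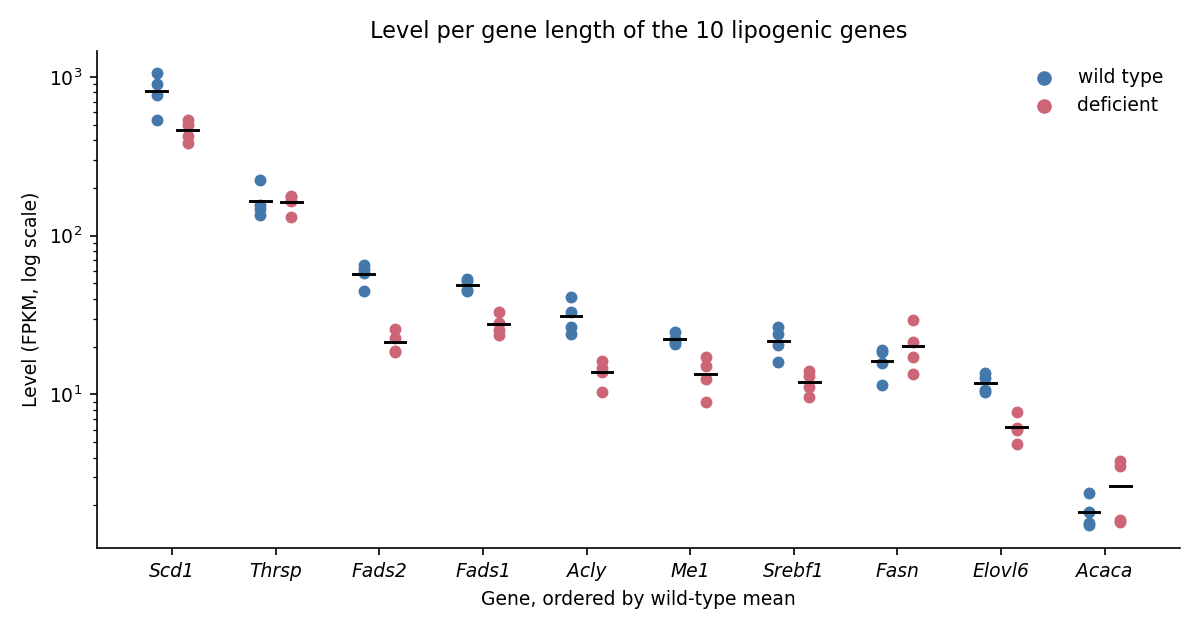
Level per gene length (FPKM, log axis) of the 10 lipogenic genes, ordered by their wild-type mean, in wild-type (blue) and deficient (red) libraries, with group means as lines. Scd1 and Thrsp stand above the rest in both groups, and the red means lie lower for all but Fasn and Acaca, with the red and blue points apart for Srebf1, Acly, Me1, Elovl6, Fads1 and Fads2.

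Beyond these 10, 76 further genes of the pathway were read from the same fit in 4 lists chosen with earlier results of these data known. Of the 68 that could be tested, 18 fell, 6 rose and 44 did not pass, beside 10.6% lower and 9.27% higher calls over all genes. The number that fell was 11 with library size alone or in limma on FPKM. Left-out libraries moved it to 8 (wild type 3) and 11 (deficient 1 or deficient 3), and the number that rose to 3 without deficient 1 and 2 without deficient 3 or wild type 3.

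**Figure D5:**
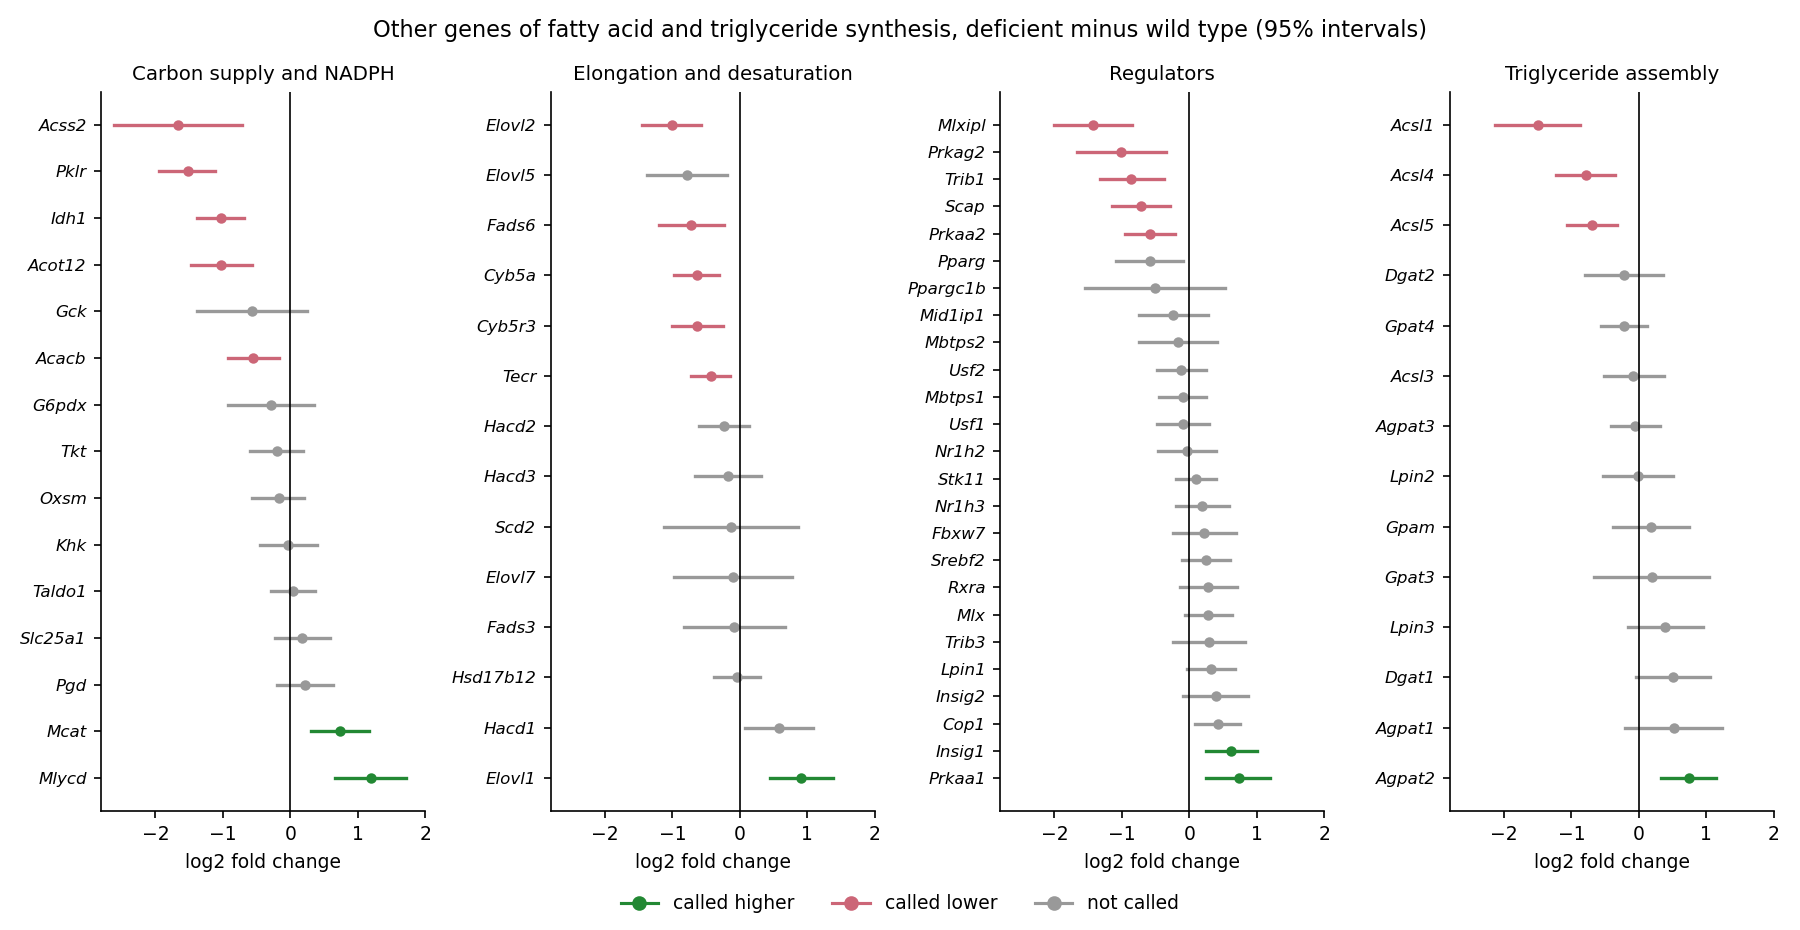
log2 fold change (deficient minus wild type, horizontal axis) with 95% intervals for the 68 tested genes of 4 related lists; green marks genes called higher, red genes called lower and grey genes not called. The carbon supply list holds 5 red and 2 green genes, elongation and desaturation 5 and 1, regulators 5 and 2, and triglyceride assembly 3 and 1.

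In carbon supply and NADPH, 5 of 15 genes fell and 2 rose, with a median of -0.20. The 5 became 3 without deficient 3 or wild type 1, and the 2 became 1 with the replicate block or when deficient 1 or 3 or any wild-type library but the fourth was left out. Pklr (ENSMUSG00000041237), the liver pyruvate kinase, stood at 40.1, 57.7, 65.8 and 50.7 CPM in deficient and at 192.1, 129.2, 139.0 and 155.9 CPM in wild-type libraries, and fell by 1.52 (SE 0.19, edgeR adjusted p = 0.00312). Idh1 (ENSMUSG00000025950), a cytosolic source of NADPH, fell by 1.03 (SE 0.16) and averaged 80.0 ± 5.59 CPM against 163.1 ± 27.3 CPM (SD, n = 4). Acss2, which makes acetyl-CoA from acetate, fell by 1.66 (SE 0.44), and Acot12, a cytosolic acetyl-CoA hydrolase, by 1.02 (SE 0.21). The call of Acss2 was lost with deficient 3 left out (adjusted p = 0.0662) and with wild type 1 left out (adjusted p = 0.0545). In the other direction, Mlycd (ENSMUSG00000074064), the decarboxylase that breaks malonyl-CoA down, stood at 65.1, 27.1, 38.2 and 51.6 CPM against 22.1, 22.3, 17.7 and 17.4 CPM. Every deficient library was above every wild-type library, and Mlycd rose by 1.20 (SE 0.24, edgeR adjusted p = 0.00949). Khk, the fructokinase and the most abundant gene of the list per length, averaged 655.8 ± 54.4 CPM without and 643.0 ± 171 CPM with the deficiency (SD, n = 4, edgeR adjusted p = 0.934).

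In elongation and desaturation, 5 of 14 tested genes fell and 1 rose, with a median of -0.21. The 5 became 2 with library size alone, in both limma fits, or without deficient 1 or deficient 4, 3 with the replicate block or without deficient 2, wild type 1 or wild type 4, and 1 without wild type 3. The 1 became 2 with library size alone and in both limma fits. Elovl2 (ENSMUSG00000021364), which lengthens polyunsaturated fatty acids, stood at 145.4, 211.5, 215.4 and 165.3 CPM in deficient and at 273.5, 369.5, 478.4 and 363.1 CPM in wild-type libraries. It fell by 1.01 (SE 0.20, edgeR adjusted p = 0.00931). Cyb5a, also the most abundant of the list per length, and Cyb5r3 encode the cytochrome b5 and its reductase that pass electrons to the desaturases; they fell by 0.64 (SE 0.15) and 0.63 (SE 0.17). Tecr, the last enzyme of the elongation cycle, fell by 0.43 (SE 0.13), and did not pass in 13 of 17 alternatives, among them each of the 8 left-out libraries (adjusted p = 0.0585 to 0.0865). Leaving out deficient 1, deficient 4 or wild type 3 ended the call of Cyb5r3 (adjusted p = 0.0623, 0.0572 and 0.054), as did the replicate block (adjusted p = 0.0608), library size alone (adjusted p = 0.0714) and both limma fits (adjusted p = 0.0626 and 0.0875). Leaving out wild type 3 ended that of Cyb5a (adjusted p = 0.054). The rise was in Elovl1 (ENSMUSG00000006390), an elongase of very long chains, by 0.91 (SE 0.21), averaging 31.0 ± 9.04 CPM against 16.5 ± 2.93 CPM (SD, n = 4).

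Of 25 tested regulators, 5 fell and 2 rose, with a median of -0.03. The 5 became 2 with library size alone, in both limma fits, with the replicate block, or without deficient 1 or deficient 3, 3 without wild type 1, and 1 without wild type 3. The 2 became 0 without deficient 1, deficient 3 or wild type 3, and 1 with the block or without any other library. Mlxipl (ENSMUSG00000005373) encodes ChREBP, the carbohydrate-responsive factor that drives lipogenic genes and Pklr beside SREBP-1. It stood at 45.5, 56.0, 42.1 and 71.1 CPM in deficient and at 231.1, 101.3, 120.3 and 126.1 CPM in wild-type libraries, and fell by 1.43 (SE 0.26, edgeR adjusted p = 0.00702). Scap, the escort of SREBP to the Golgi, fell by 0.71 (SE 0.20), and Insig1, which holds the complex in the endoplasmic reticulum, rose by 0.62 (SE 0.18), averaging 198.0 ± 38.7 CPM against 128.5 ± 18.0 CPM (SD, n = 4). The call of Scap was lost with deficient 1, deficient 3, wild type 1 or wild type 3 left out (adjusted p = 0.05, 0.0604, 0.0534 and 0.0808) and with the replicate block (adjusted p = 0.0571), library size alone (adjusted p = 0.0508) or limma (adjusted p = 0.0501 and 0.0661). That of Insig1 was lost when any of deficient 1, deficient 3, wild type 2, wild type 3 and wild type 4 was left out (adjusted p = 0.0536 to 0.0978), and with the block (adjusted p = 0.0671). Insig2, the most abundant regulator per length, averaged 176.7 ± 30.7 CPM without and 231.1 ± 68.8 CPM with the deficiency (SD, n = 4, edgeR adjusted p = 0.236). Trib1, a pseudokinase adaptor of the COP1 ubiquitin ligase, fell by 0.86 (SE 0.22), though not without wild type 3 (adjusted p = 0.058). Prkaa2, a catalytic subunit of AMPK, the kinase that inhibits acetyl-CoA carboxylase, fell by 0.58 (SE 0.17), a call lost when any of deficient 1, deficient 3, deficient 4, wild type 3 and wild type 4 was left out (adjusted p = 0.0511 to 0.107), and with the block (adjusted p = 0.0544). The same held for library size alone, all genes unfiltered and both limma fits (adjusted p = 0.0531 to 0.0966). Prkaa1, the other catalytic subunit, named after its value was seen, rose by 0.73 (SE 0.22, edgeR adjusted p = 0.036); like Insig1 it was not called with deficient 1, deficient 3 or wild type 3 left out. Srebf2, the sterol-regulating relative of Srebf1, chosen after its value was seen, had a log2 difference of 0.24 (95% interval -0.11 to 0.60, edgeR adjusted p = 0.309).

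In triglyceride assembly, 3 of 14 tested genes fell and 1 rose, with a median of -0.03. The 1 became 0 without deficient 3 or wild type 3. The falls were all in acyl-CoA synthetases, which activate fatty acids: Acsl1 (ENSMUSG00000018796) fell (edgeR adjusted p = 0.00839) and averaged 74.6 ± 16.2 CPM against 211.6 ± 104 CPM (SD, n = 4), Acsl4 fell by 0.79 (SE 0.20) and Acsl5 by 0.70 (SE 0.17). Wild type 3 was highest for Acsl1 at 365.7 CPM, while all 4 wild-type libraries were above 90.3 CPM, the highest deficient value. Agpat2, an acyltransferase of phosphatidic acid synthesis, rose by 0.74 (SE 0.19). The calls of Acsl4 and Agpat2 were lost with deficient 3 left out (adjusted p = 0.0601 and 0.0549) and with wild type 3 left out (adjusted p = 0.0709 and 0.0626). Dgat2, which completes triglycerides and was the most abundant of the list per length, averaged 440.1 ± 66.1 CPM without and 378.5 ± 169 CPM with the deficiency (SD, n = 4, edgeR adjusted p = 0.594).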

How the data were processed

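Per the labels' protocols, Trizol was used on the livers, and poly-A RNA was turned into cDNA from random primers. The submitters' processing notes name cutadapt and HISAT2 2.0.5; which program counted the reads, whether by strand, and on which annotation and build is not stated there, so gene coordinates are printed as the table lists them and reads of overlapping genes cannot be separated. The deposited table gives, per the file headers, for each gene and library an unnormalized read count and the authors' FPKM (per kilobase and per megaread). Groups follow the genotype in the labels, and libraries carry the number that ends their titles.

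Read counts were fitted with edgeR 4.0.16 (R 4.3.3; quasi-likelihood test, TMM scaling, default expression filter, no covariate), which left 11380 genes; 5754 of 21899 had 0 reads throughout. All 10 lipogenic genes passed the filter, with 412 or more reads in each library. P-values were adjusted over all genes by the Benjamini-Hochberg method, threshold 0.05. The SE is the log2 fold change divided by the square root of the F statistic. In simulated counts with 200 genes changed, 11229 genes were tested, among them 95 changed 2-fold and 97 changed 4-fold. This fit recovered 48.4% of those 2-fold and 92.8% of those 4-fold changes. It made 3 false calls. The changed share was smaller than the 19.9% called in the data, so these rates may not carry over. Replicates differed by more than counting noise (chi-square per degree of freedom 21.53 or more).

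The members, gene lists and tests were chosen with earlier results of these data known. Genes named were the 10 members, P2rx4, Scd2, and from each related list at most 5 past the threshold with the smallest p and the gene with the highest mean FPKM. Srebf2, Prkaa1, Scd3, Scd4 and the single cell type markers were named outside this rule, after their values were seen. Alternatives were DESeq2 1.42.0, library size alone, other filters, limma 3.58.1 on log2(FPKM + 1) or log2(FPKM + 0.1) where 4 libraries reached an FPKM of 0.5, robust empirical Bayes, the replicate number as a block, each library left out, and, added after seeing the data, removal of the gene length trend and the ratios between members.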

Additional observations from a re-analysis of the deposited data

Results flagged for a closer look

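In 68 groups of 4 libraries examined for a library far from the others, 4 were found, where chance gives about 1 in 20. None involved the 10 lipogenic genes or P2rx4. Elovl1 stood at 12.1 CPM in wild type 3, against 17.8 to 18.0 CPM in the other wild-type libraries. Cyb5r3 stood at 297.8 CPM in wild type 1, against 207.1 to 210.8 CPM, and Tecr at 109.1 CPM in the same library, against 96.9 to 98.9 CPM. Scd2 stood at 2.72 CPM in deficient 1, against 1.84 to 1.99 CPM in the other deficient libraries.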

How the results depend on the processing

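The 7 genes Srebf1, Acly, Me1, Elovl6, Scd1, Fads1 and Fads2 fell with an adjusted p under 0.05 in each of 17 alternatives, the highest being adjusted p = 0.0397 for Scd1, and 0 of the 10 rose in any. With library size alone the median of all genes moved to 0.143 and their falls ran from -1.42 to -0.74; the split of all calls was then 1731 higher and 843 lower, against 1055 and 1209. In limma on log2(FPKM + 1) it was 1564 and 820, and on log2(FPKM + 0.1) 1586 and 771. Fasn was between -0.036 and 0.319 with a library left out, the lowest without deficient 3. Khk, not called in any alternative, was at 0.12 with library size alone, 0.001 with no expression filter, 0.085 in both limma fits, and between -0.208 and 0.067 with a library left out. Scd2, with no value in the limma fits, was at 0.018 with library size alone, 0.07 with the replicate block, and between -0.427 and 0.344 with a library left out. With libraries left out in turn, all calls ran from 982 to 2388, related genes called from 10 to 20, those lower from 8 to 16 and those higher from 2 to 5. Related genes called lower were 11 with library size alone and 11 in each limma fit. The cause of these moves was not tested. Correlations between same-numbered libraries were 0.132, -0.114, 0.074 and -0.105, and those between differently numbered ones ran from -0.317 to 0.33. These values showed no common deviation by number, but so few cannot show that no pairing exists. With the number as a block 1768 genes were called and the same 7 of the 10 fell. At this depth a floor of 3 reads is 0.172 to 0.211 CPM, which covers counting error only.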
